A study of Mus musculus with 12 samples.

Results

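The cardiomyocyte fraction is the part of each dissociated mouse heart that is enriched for muscle cells, and it was compared here between mice with floxed Wls and control mice. It gave 6 of the 12 RNA-seq libraries of the series, 3 per genotype, all chosen by the fraction and genotype in the sample labels. Of 46983 gene symbols in the table of this fraction, 11944 had a mean normalized read count of 10 or more over the 6 libraries and were tested. The mean was 10.02 for Bok, just inside that limit, and 9.995 for Gm15545, just outside it.

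Control mice carried the genotype MCM/+, and the other mice carried MCM/+ together with Wls fl/fl, both on a strain labelled BL6/C57. MCM commonly stands for MerCreMer, a form of Cre recombinase flanked by mutated estrogen receptor domains that enters the nucleus after tamoxifen. By these labels both groups carried MCM/+, and both were dosed with tamoxifen, 3 times from postnatal day 1 to day 3. Myocardial infarction was induced on postnatal day 2 in both, and tissue was taken 2 weeks later, at an age for which the label "adult" is not literal. The labels do not name the promoter that drives MCM, and no group without MCM, without tamoxifen or without infarction was analysed here. The series states 3 hearts per condition but does not tie libraries to hearts, so p-values reflect only how far these libraries spread. The remaining 6 libraries come from the non-cardiomyocyte fraction of the same 2 genotypes and are used only beside results of the muscle fraction.

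Cardiomyocytes contract by sliding actin and myosin filaments in sarcomeres, and they draw most of their energy from mitochondria. In the first weeks after birth they leave the cell cycle and move from glycolysis towards fatty acid oxidation. Wls (Wntless) is a membrane protein that carries lipid-modified Wnt ligands from the Golgi to the cell surface, so cells without it release little Wnt. Wnt ligands act through Frizzled receptors, either by stabilising beta-catenin or by noncanonical routes such as planar cell polarity. The comparison asks what the muscle fraction itself expresses when the gene needed for its Wnt release is floxed.

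Recovered reads per library ranged from 5171769 to 9775856, and 1 read was worth a normalized read count of 0.647 to 1.23. Each library was fitted as a weighted blend of the other 2 of its genotype, and the 1% of genes farthest from the blend were left out of the mean residual. In control the mean squared residual was 1.02 times the counting variance for replicate 3, against 2.17 and 2.26 for replicates 1 and 2. In Wls fl/fl it was 1.15 for replicate 3, 1.11 for replicate 1 and 1.75 for replicate 2. The fits of replicates 1 and 2 gave each other a weight of 0, so their residuals are distances from replicate 3 alone. Only replicate 3 was fitted as a blend of both others there, with weights of 0.535 on replicate 1 and 0.455 on replicate 2. Wls fl/fl replicates 1 and 3 lay close together, with a mean squared difference of 1.11 times the counting variance by the same rule. Single genes went against the blends, and Zrsr1, at 94.0 and 104 in control replicates 1 and 2, was at 17604 in control replicate 3. The level of replicate 3 was the middle one of its group for 49.4% of 4259 abundant genes in control and for 47.1% in Wls fl/fl. Results are therefore given with and without replicate 3 of both genotypes. Pairs of libraries of the same genotype differed by a median of at most 0.134 on the log2 scale, and pairs of different genotypes by at most 0.143, and the 2 ranges overlapped.

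The 3 muscle markers were abundant in all 6 libraries. Myh6 encodes the main cardiac myosin heavy chain of the adult mouse. It stood at normalized read counts of 265583, 270908 and 272918 in the control libraries against 258609, 281858 and 256516 in the Wls fl/fl libraries, and the groups overlapped. Per kb of gene model it ranked 10 of 11519 genes placed on the annotation, behind 7 mitochondrially encoded genes, the small nuclear RNA Rn7sk and the short gene Gm23935. Tnnt2, cardiac troponin T, had 41014, 40440 and 40845 in control against 37223, 39034 and 36954 in Wls fl/fl. All 3 Wls fl/fl libraries lay below the controls for Tnnt2, by 0.11 on the log2 scale, and this did not pass the test (limma adjusted p = 0.483). Actn2, the Z-disc protein alpha-actinin, was 14873 ± 596 (SD, n = 3) and 15214 ± 831, again with overlap.

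Markers of other cells were present at low levels, and the main types overlapped between genotypes. The 28 cardiomyocyte markers took 12.4 to 12.7% of normalized reads in control and 12.3 to 13.6% in Wls fl/fl libraries, against 7.10 to 8.996% in the non-cardiomyocyte fraction. The 20 fibroblast markers took 0.154 to 0.164% and 0.144 to 0.180%, against 1.35 to 1.99% in that fraction. For the 24 endothelial markers the shares were 0.303 to 0.343% and 0.297 to 0.316%, so endothelial RNA was only moderately depleted relative to 0.438 to 0.498% in the other fraction. Macrophage markers took 0.00719 to 0.00876% in control and 0.00754 to 0.00810% in Wls fl/fl, against 0.149 to 0.226%. The smooth muscle and pericyte list did not follow this order, with 0.389 to 0.410% over the 6 libraries against 0.283 to 0.315% in the other fraction. That list includes Des, which is also in the sarcomere list, so its share does not describe smooth muscle and pericyte RNA alone. Its 3 members of smallest p between genotypes, Kcnj8, Pdgfrb and Tagln, did follow the order. They were at 174, 693 and 42.6 in control here and at 244, 1008 and 92.5 in control of the other fraction, scaled separately. In bulk libraries, fewer cells of a type and less RNA per cell cannot be told apart.

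Defining markers showed the same picture. Pdgfra, the receptor that marks fibroblasts, was at 284.5 ± 18.95 in control and 268.7 ± 20.6 in Wls fl/fl (SD, n = 3), and Pecam1, an endothelial junction protein, was at 919.1 ± 85.7 and 880.1 ± 81.3. Csf1r, the growth factor receptor of macrophages, was at 90.2 ± 5.34 and 79.0 ± 9.72. The neutrophil marker Ly6g, the T-cell marker Cd3d, the neuronal marker Tubb3 and the adipocyte markers Cidec, Lep, Retn and Ucp1 had no read in any of the 6 libraries. Some small lists varied between libraries of the same genotype, and 1 separated the genotypes. Atrial markers took 0.0155 to 0.0166% in control and 0.0106 to 0.0212% in Wls fl/fl, and erythroid markers took 0.00313 to 0.00696% and 0.00305 to 0.0105%. The 8 endocardial and valve markers took 0.0228 to 0.0238% in control and 0.0218 to 0.0221% in Wls fl/fl, with no overlap.

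**Figure D1:**
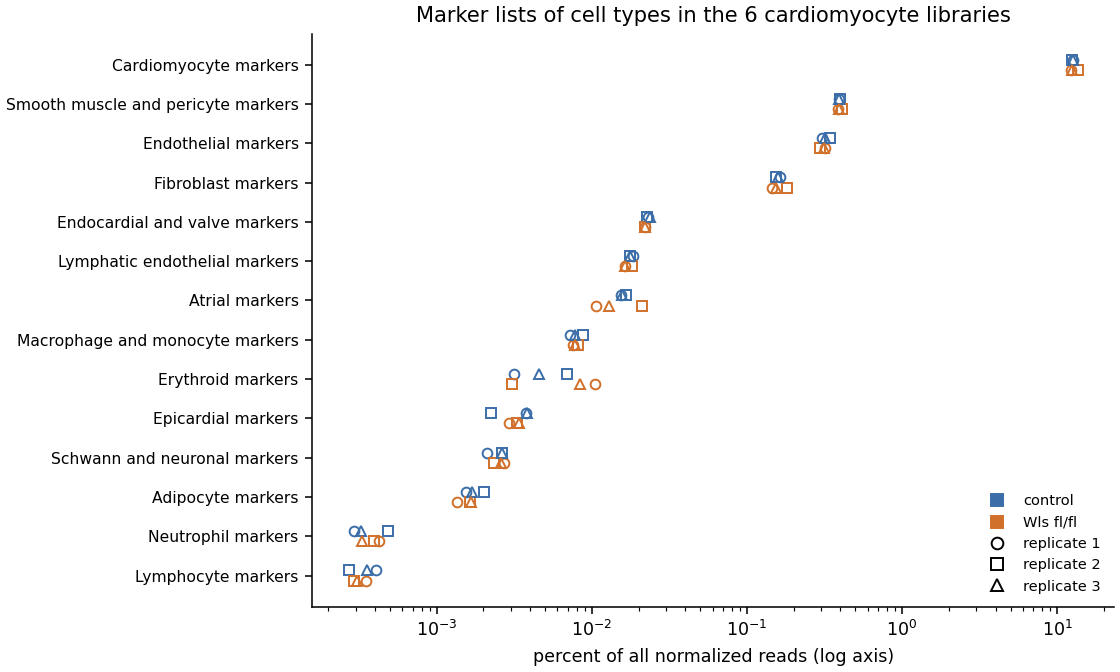
Share of normalized reads (percent, log axis) taken by each marker list in the 6 cardiomyocyte libraries, with colour for genotype and shape for replicate. Cardiomyocyte markers lie above 10% in every library, all other lists lie below 1%, and only the endocardial and valve list separates the genotypes.

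Few genes differed in the muscle fraction, and most differences were small. At an adjusted p under 0.05, 8 genes rose and 3 fell, which is 0.0921% of the 11944 genes tested (0.067% upward and 0.0251% downward). The median absolute log2 difference was 0.0987 over all genes tested and 0.0784 over genes with a mean of 50 or more, and 84.0% of genes differed by less than 0.25. Only 372 genes (3.11%) differed by at least 0.5 and 22 (0.184%) by at least 1.

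An unadjusted p under 0.05 was met by 1044 genes (8.74%), 586 higher (4.91%) and 458 lower (3.83%), where 5% of the genes tested is 597.2. Without replicate 3 of both genotypes this number was 475 (3.98%), with 2 libraries per group. Groups did not overlap for 1794 genes (15%), of which 952 were higher (7.97%) and 842 lower (7.05%) in Wls fl/fl.

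**Figure D2:**
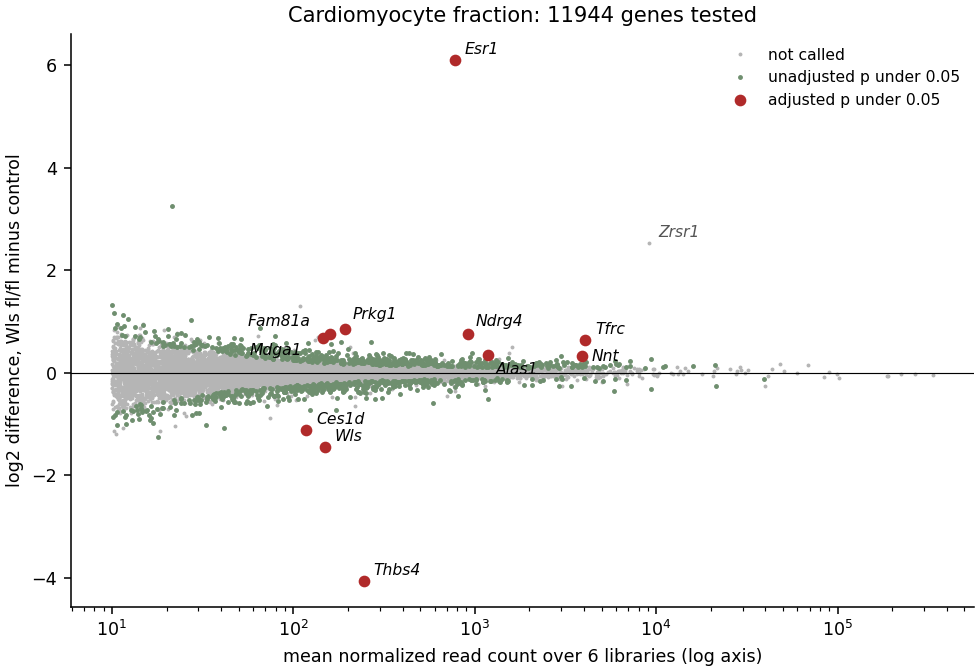
Log2 difference of Wls fl/fl minus control for the 11944 genes tested, against the mean normalized read count over 6 libraries (log axis). The 11 genes with an adjusted p under 0.05 are red, and genes with an unadjusted p under 0.05 are green. Esr1 and Thbs4 lie far outside the band of all other called genes, and Zrsr1 lies high without passing the test.

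Wls itself, the floxed gene, lies on chromosome 3 from 159839672 to 159938664 (mm10). Control libraries held 243, 201 and 210 normalized reads of it against 91.6, 57.3 and 93.9 in the Wls fl/fl libraries. The groups were well apart, and every Wls fl/fl library kept a clear remainder of Wls reads. By the log2 change Wls fell 2.73-fold, with means of 218 ± 22.1 and 80.9 ± 20.5 (SD, n = 3; log2 change −1.45, SE 0.17, adjusted p = 0.00389). Which exons were floxed is not stated in the sources used here, so reads outside the deleted part would still be counted. The change without control replicate 3 was −1.47 with an adjusted p of 0.0527, and with replicate 3 of both genotypes left out it was −1.60 with 0.0896. In the other fraction Wls stood at 403 ± 26.9 and 332 ± 21.4 (log2 change −0.28, adjusted p = 0.0831). With all 12 libraries the change was larger in the muscle fraction by the test of the difference itself (interaction of fraction and genotype 1.15 on the log2 scale, edgeR adjusted p = 0.0103).

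Esr1 encodes estrogen receptor alpha and had the largest change of all genes tested. Control libraries held 14.3, 33.3 and 19.5 normalized reads against 1686, 1298 and 1596 in Wls fl/fl libraries. The lowest Wls fl/fl library was thus far above the highest control library. By the log2 change Esr1 rose 68.8-fold, with means of 22.4 ± 9.83 and 1527 ± 203 (SD, n = 3; log2 change 6.10, SE 0.22, adjusted p = 4.3e-08). MerCreMer transgenes carry part of a mouse estrogen receptor, and the labels give MCM/+ to both genotypes. Reads of the transgene and of the chromosome 10 gene (4611593 to 5005614) cannot be separated in gene-level values, and how far each contributed was not tested. Whether MCM was present and expressed alike in both groups, as the shared label would have it, was not tested either.

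The other members of the estrogen receptor family and its cofactors were not called. Of 11 tested members of that list, 1 was called, and the median log2 difference was −0.00 against 0.00 over all genes. An unadjusted p under 0.05 was met by 3 with Esr1 included (27.3%), all 3 higher, against 4.91% of all genes in that direction. Esrra, which encodes a related orphan receptor that regulates mitochondrial genes, was at 620 ± 64.3 and 706 ± 33.3, and the groups overlapped. Hsp90aa1, a chaperone that holds steroid receptors inactive, was at 517, 559 and 605 in control against 652, 640 and 630 in Wls fl/fl. These groups did not overlap, and the difference of 0.20 on the log2 scale did not pass the test (adjusted p = 0.446). Esr2, which encodes estrogen receptor beta, had no read in any library.

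Thbs4 encodes thrombospondin 4, a secreted matricellular protein that also acts inside the endoplasmic reticulum of injured muscle. It had 542, 396 and 438 normalized reads in control libraries and 25.8, 45.8 and 15.5 in Wls fl/fl libraries. No Wls fl/fl library came near the controls. By the log2 change it fell 16.6-fold, with means of 459 ± 74.9 and 29.1 ± 15.4 (SD, n = 3; log2 change −4.05, SE 0.28, adjusted p = 3.6e-05). Without replicate 3 of both genotypes the change was −3.71 with an adjusted p of 0.000659. Of 17 tested thrombospondins and matricellular genes it was the only one called, and the median log2 difference was 0.10. In that list 5 higher and 1 lower had an unadjusted p under 0.05 (35.3%, Thbs4 included), against 8.74% of all genes. Thbs1, which activates latent TGF-beta, was at 70.1 ± 13.2 and 68.3 ± 9.58, and Thbs2 at 215 ± 57.0 and 180 ± 19.6, both with overlapping groups. Periostin (Postn), a matrix protein of activated fibroblasts, had 313, 260 and 314 in control against 349, 387 and 386 in Wls fl/fl, a difference of 0.34 in the other direction that did not pass the test (adjusted p = 0.338).

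Tfrc, the transferrin receptor that imports iron, ranked 293 of 11519 genes per kb of gene model, the highest of 10 called genes (Nnt was not ranked). It had 3547, 2858 and 3191 normalized reads in control libraries and 4940, 4906 and 4978 in Wls fl/fl libraries. The Wls fl/fl libraries were nearly equal, and each lay above the highest control. By the log2 change Tfrc rose 1.55-fold, with means of 3198 ± 344 and 4941 ± 36.3 (SD, n = 3; log2 change 0.63, SE 0.07, adjusted p = 0.00153). Alas1, the housekeeping enzyme that starts heme synthesis in mitochondria, had 1027, 1025 and 1050 in control against 1289, 1374 and 1294 in Wls fl/fl. It rose 1.27-fold with no overlap (log2 change 0.35, SE 0.05, adjusted p = 0.0159).

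No other gene of the iron and heme list was called. Of its 31 tested members, 17 were higher and 14 lower, and the median log2 difference was 0.01 against 0.00 over all genes. With Tfrc and Alas1 included, 3 higher and 1 lower had an unadjusted p under 0.05 (12.9%), against 8.74% of all genes. The iron store subunits Fth1 (6561 ± 172 and 6557 ± 434) and Ftl1 (340 ± 22.5 and 335 ± 16.8) overlapped between genotypes. So did the iron exporter Slc40a1, at 145 ± 9.04 and 136 ± 6.29, and the iron-sensing regulators Ireb2 and Aco1, with log2 differences of 0.05 and 0.00. Fech, which inserts iron in the last step of heme synthesis, was at 591 ± 26.5 and 604 ± 29.4. Erythroid Alas2 ranged from 5.11 to 24.7 in control and from 7.29 to 29.4 in Wls fl/fl, with overlap. Red-cell precursors also express Tfrc. Erythroid markers took 0.00313 to 0.00696% of reads in control against 0.00305 to 0.0105% in Wls fl/fl, all 6 tested markers had a log2 difference above 0, and their part in the Tfrc values was not tested.

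The promoters of Thbs4, the largest fall, and Tfrc, a rise called whichever single library was left out, are shown to give the sequence context of these changes. Each is the 250 bases before the RefSeq transcript start on GRCm38.p6, written 5′ to 3′ on the gene's strand, Thbs4 on the minus strand of chr13:92794819-92795068 and Tfrc on the plus strand of chr16:32608646-32608895. Capitals mark matches to the CCAAT box (CCAAT) or the GC box (GGGCGG) on either strand.
Thbs4: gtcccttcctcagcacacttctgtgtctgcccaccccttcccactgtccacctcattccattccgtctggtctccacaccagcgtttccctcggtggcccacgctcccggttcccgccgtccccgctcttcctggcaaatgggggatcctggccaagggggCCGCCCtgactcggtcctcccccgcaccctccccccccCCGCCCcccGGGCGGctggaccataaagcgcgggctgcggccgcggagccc
Tfrc: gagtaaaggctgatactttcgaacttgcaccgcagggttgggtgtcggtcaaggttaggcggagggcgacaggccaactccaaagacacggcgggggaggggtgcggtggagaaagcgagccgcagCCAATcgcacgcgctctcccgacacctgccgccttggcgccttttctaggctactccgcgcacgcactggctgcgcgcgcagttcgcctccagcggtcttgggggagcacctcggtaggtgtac
The Thbs4 window held 3 GC boxes and no CCAAT box, and the Tfrc window held 1 CCAAT box and no GC box. Of the 11 called genes, 9 had a promoter in the RefSeq table, and the most upstream promoter of each was searched. Of these 9 windows 6 held a GC box and 3 a CCAAT box, against 32.96% and 34.5% of the most upstream promoters of 27026 genes. The nuclear receptor motif (AGGTCA), the hypoxia response core (ACGTG) and the E-box (CACGTG, which contains that core) were found in 0 of the 9, against 13.8%, 16.5% and 6.04% of the most upstream promoters. A missing match says only that these letters are not in this window.

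Ndrg4 encodes a cytoplasmic protein of heart and brain that is needed for cardiomyocyte growth in zebrafish. It had 675, 645 and 704 normalized reads in control libraries and 1043, 1305 and 1106 in Wls fl/fl libraries, with no overlap. It rose 1.70-fold (log2 change 0.76, SE 0.08, adjusted p = 0.00153). None of its paralogs was called. Ndrg1 was at 200 ± 19.2 and 203 ± 24.9, Ndrg2 at 6045 ± 209 and 5978 ± 78.0, and Ndrg3 at 87.1 ± 14.9 and 81.1 ± 8.90 (SD, n = 3), each with overlapping groups.

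Nnt, the proton-pumping transhydrogenase that makes NADPH in mitochondria, had 3448, 3402 and 3450 normalized reads in control against 4263, 4487 and 4241 in Wls fl/fl. It rose 1.26-fold with no overlap (log2 change 0.33, SE 0.04, adjusted p = 0.0086). C57BL/6J mice are known to carry a deletion within Nnt, while the labels give no substrain, and no genotype at this gene was tested. The nearby gene 4833420G17Rik was singled out after its values were seen. It had 50.1, 50.6 and 69.1 in control against 23.5, 30.2 and 24.6 in Wls fl/fl, and did not pass the test (log2 difference −1.08, adjusted p = 0.0682). Among 20 tested genes for mitochondrial antioxidants, Nnt was the only called one, and the median log2 difference was 0.05. With Nnt included, 3 had an unadjusted p under 0.05 (15%), all 3 higher, against 4.91% of all genes in that direction. Prdx5 and Sod2, which remove peroxide and superoxide in mitochondria, were higher by 0.20 and 0.12 with adjusted p of 0.273 and 0.452.

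Ces1d, a carboxylesterase that hydrolyses triglycerides, had 159, 163 and 162 normalized reads in the control libraries and 58.7, 91.7 and 74.4 in the Wls fl/fl libraries. The controls were nearly equal, and all Wls fl/fl libraries were lower. It fell 2.17-fold (log2 change −1.12, SE 0.14, adjusted p = 0.00872). Ces1d belongs to a cluster of similar carboxylesterase genes, so reads may have been shared between copies. Its relative Ces1f had no read in any library. Among 19 tested lipases and lipid droplet genes, 1 was called, and the median was 0.03. With Ces1d included, 5 higher and 1 lower had an unadjusted p under 0.05 (31.6%), against 8.74% of all genes. Pnpla2, the main adipose-type triglyceride lipase, stood at 3345 ± 158 and 3331 ± 54.4 with overlap.

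Prkg1, the cGMP-dependent protein kinase I, had 129, 163 and 122 normalized reads in control against 231, 258 and 253 in Wls fl/fl, with no overlap. It rose 1.80-fold (log2 change 0.85, SE 0.11, adjusted p = 0.00893). Other genes of the natriuretic peptide and cGMP route leaned the other way, with 12 of 16 tested members lower and a median of −0.06. With Prkg1 included, 3 members had an unadjusted p under 0.05 (18.75%, 2 of them lower), against 8.74% of all genes. The natriuretic peptide receptors Npr1 and Npr3 did not overlap between genotypes and were lower by 0.28 and 0.17 on the log2 scale without passing the test (adjusted p = 0.56 for both). Npr3 is also a marker of endocardium, and the endocardial and valve list took a smaller share of reads in every Wls fl/fl library (0.0218 to 0.0221% against 0.0228 to 0.0238%), whose part in the Npr3 values was not tested. Smooth muscle also expresses Prkg1. Of 15 tested smooth muscle and pericyte markers 9 were higher, with a median of 0.07, and Myh11 stood at 138 ± 15.5 and 150 ± 7.99 with overlap. Tagln was higher in every Wls fl/fl library (log2 difference 0.28, adjusted p = 0.646), and the part of smooth muscle RNA in the Prkg1 values was not tested.

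The last pair of called genes is less well understood in the heart. Fam81a, a coiled-coil protein gene, had 130, 105 and 120 normalized reads in control against 214, 202 and 182 in Wls fl/fl (log2 change 0.75, SE 0.11, adjusted p = 0.0159). Mdga1, a membrane-anchored adhesion protein known from neurons, had 126, 104 and 106 in control against 173, 191 and 177 in Wls fl/fl (log2 change 0.69, SE 0.10, adjusted p = 0.0262). In both cases the 3 Wls fl/fl libraries lay above all controls.

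**Figure D3:**
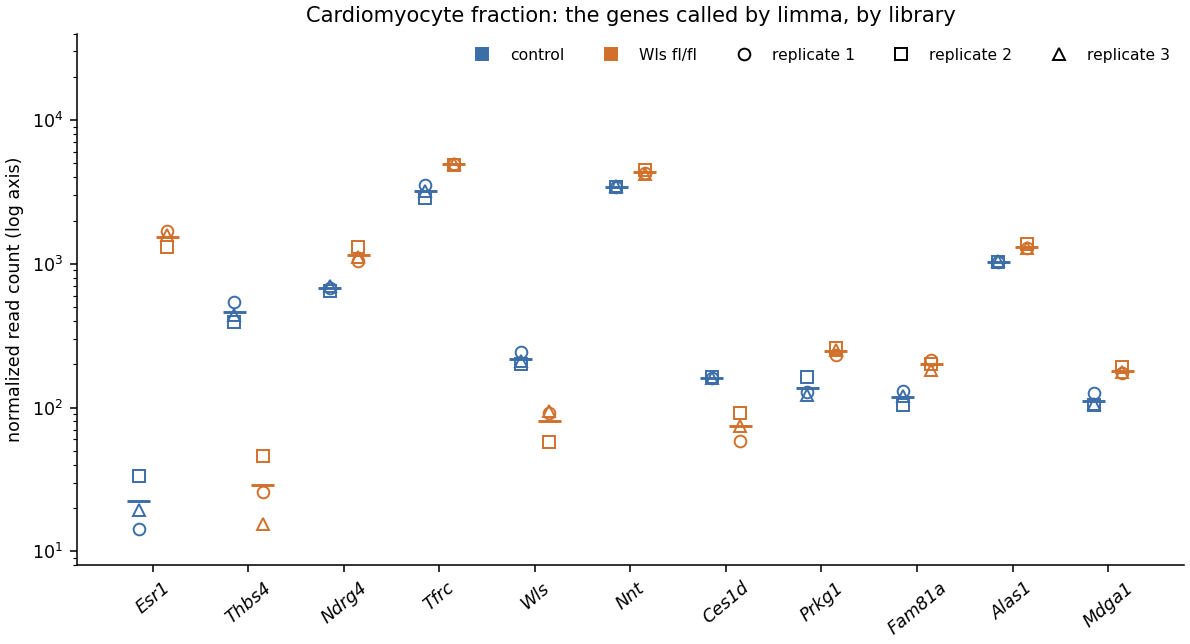
Normalized read count (log axis) of each of the 11 called genes in every cardiomyocyte library, by genotype, with the group mean as a bar. The 2 genotypes do not overlap for any of these genes, and the distance between them is largest for Esr1 and Thbs4.

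How firmly these 11 calls stood depended on the libraries. Esr1, Thbs4, Ndrg4 and Tfrc, 4 of the 11, were called whichever single library was left out, and Wls was lost only without control replicate 3. Nnt, Ces1d, Prkg1 and Alas1 were called in 4 of 6 such fits, Fam81a in 2 and Mdga1 in 1. With replicate 3 of both genotypes left out, only Esr1 and Thbs4 were called, and adjusted p was 0.278 for Tfrc, 0.433 for Fam81a, 0.49 for Ces1d, 0.668 for Prkg1, 0.887 for Nnt and 0.979 for both Alas1 and Mdga1. The log2 changes themselves moved little in that fit, for example 0.82 for Ndrg4 and 0.63 for Tfrc. edgeR and the authors' deposited table also called all 11. That table gave 15 genes higher and 8 lower at an adjusted p under 0.05 among 10244 with an adjusted p.

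All 11 log2 differences had the same sign in the non-cardiomyocyte fraction, a fraction that also holds much muscle RNA and may come from the same hearts. There, 598 of 13271 genes were called (4.51%), and 4 of the 11 were among them. Esr1 was at 53.1 ± 30.9 and 723 ± 69.9 (log2 change 3.88, adjusted p = 0.000865) and Thbs4 at 315 ± 11.8 and 60.1 ± 33.5 (−2.56, adjusted p = 0.00929). Ndrg4 rose by 0.51 (adjusted p = 0.00491) and Prkg1 by 0.41 (adjusted p = 0.0403). Tfrc was higher by 0.34 (adjusted p = 0.0855), and Nnt, Alas1 and Mdga1 differed by 0.07, 0.02 and 0.07 without passing the test.

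The interaction of fraction and genotype passed its test for 3 of the 11 genes, where 198 of 13993 genes passed (1.41%). These were Wls, Esr1 (−1.93, adjusted p = 0.0299) and Mdga1 (−0.64, adjusted p = 0.0447), each with the larger change in the muscle fraction. The same edgeR test passed for the muscle markers Myh6 (−0.32, adjusted p = 0.0299) and Tnnt2 (−0.31, adjusted p = 0.0381), but not for Actn2 (adjusted p = 0.0874). Myh6 changed by −0.33 in the non-cardiomyocyte fraction (limma adjusted p = 0.0207). The part of its muscle RNA in the interactions was not tested, and the fit took the 2 fractions as independent libraries. For Thbs4 the interaction was 1.69 with an adjusted p of 0.054. With replicate 3 of all 4 groups left out, none of the 11 passed, and adjusted p was 0.243 for Wls and 0.734 for Esr1 and Mdga1. Without the shallow non-cardiomyocyte control replicate 1, Wls and Esr1 passed and Mdga1 did not (adjusted p = 0.0605).

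The next genes in order of p were not called but had groups that did not overlap, and several are muscle genes. Myom2, a protein of the sarcomeric M-band, had 22448, 24242 and 23194 normalized reads in control against 19722, 19049 and 19378 in Wls fl/fl (log2 difference −0.26, adjusted p = 0.0502), and edgeR called it (adjusted p = 0.0304). Tcap, the titin cap of the Z-disc, was lower by 0.25 (adjusted p = 0.0638). Cox7a1, the muscle form of a cytochrome c oxidase subunit, had 2609, 2513 and 2568 in control against 3078, 3010 and 3058 in Wls fl/fl (0.25, adjusted p = 0.0604). Hcn2, a pacemaker channel subunit, was at 376 ± 5.21 and 495 ± 33.5 (0.39, adjusted p = 0.0638). In each of these the difference was under 0.5 on the log2 scale. The authors' deposited table called Myom2, Tcap and Cox7a1 (DESeq2 adjusted p = 0.000495, 0.0135 and 0.0132) but not Hcn2 (0.0574).

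Among the others, Trabd2b (Tiki2), a membrane protease known to cut Wnt proteins, had 806, 818 and 806 in control against 664, 598 and 661 in Wls fl/fl (log2 difference −0.34, adjusted p = 0.0638). Fn1, the matrix protein fibronectin, had 604, 536 and 571 and 722, 762 and 706 (0.36, adjusted p = 0.0682). Hdac9, a class II histone deacetylase that restrains cardiac growth genes, had 348, 331 and 320 and 206, 264 and 230 (−0.52, adjusted p = 0.0682). Each lay apart between genotypes without passing the limma test, while the authors' deposited table called each (DESeq2 adjusted p = 0.0377, 0.0389 and 0.0267). Rpph1, the RNA of ribonuclease P, and Fndc5, the precursor of irisin, were higher by 0.27 and 0.29. Gsto1, a glutathione transferase, and Scd4, a fatty acid desaturase, were higher by 0.36 and 0.60, and Prune2 was lower by 0.72. The limma adjusted p of Rpph1, Fndc5, Gsto1, Scd4 and Prune2 lay from 0.0712 to 0.117. The deposited table called Rpph1, Fndc5, Scd4 and Prune2 (DESeq2 adjusted p = 0.00323, 0.0278, 0.0132 and 0.00702) but not Gsto1 (0.128).

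Nuclear genes for the respiratory chain were slightly but almost uniformly higher in the Wls fl/fl libraries. Of 80 tested subunits of complexes I to IV (with cytochrome c) and ATP synthase, 77 had a log2 difference above 0, against 50.1% of all genes. No member was called, 35 had an unadjusted p under 0.05, all 35 higher, against 4.91% of all genes in that direction. For 43 the groups did not overlap, all 43 higher, against 7.97% of all genes. The median log2 difference was 0.10, against 0.00 over all genes. The members are measured in the same 6 libraries, so they are not independent of each other.

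Complex I, which passes electrons from NADH to ubiquinone, had 36 of 37 members higher, 16 at an unadjusted p under 0.05, and a median of 0.10. Its subunit Ndufa11 had 951, 944 and 938 normalized reads in control against 1074, 1160 and 1162 in Wls fl/fl, the list's smallest p (log2 difference 0.26, adjusted p = 0.14). Complexes II to IV had 26 of 27 higher, 15 at an unadjusted p under 0.05, and a median of 0.11. Cycs, the electron carrier cytochrome c, had 1004, 1009 and 1104 in control against 1182, 1281 and 1223 in Wls fl/fl (0.24, adjusted p = 0.28). ATP synthase had 15 of 16 higher, 4 at an unadjusted p under 0.05, and a median of 0.09. Without replicate 3 of both genotypes the medians were 0.11, 0.13 and 0.10, and 3, 9 and 2 members had an unadjusted p under 0.05, against 3.98% of all genes in that fit. With each single library left out, the medians stayed between 0.0767 and 0.119 for complex I, 0.0927 and 0.141 for complexes II to IV, and 0.0609 and 0.111 for ATP synthase.

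As shares of all normalized reads, complex I took 0.970, 0.920 and 0.954% in the control libraries and 0.997, 1.04 and 1.01% in the Wls fl/fl libraries. Complexes II to IV took 1.28, 1.21 and 1.26% and 1.32, 1.37 and 1.34%. For both lists every Wls fl/fl library lay above every control library. For ATP synthase, with 1.47 to 1.56% and 1.56 to 1.65%, control replicate 1 and Wls fl/fl replicate 1 overlapped. The 13 mitochondrially encoded genes, which contribute to the same complexes, were not higher. They took 18.1 to 19.2% in control and 16.8 to 18.8% in Wls fl/fl, 9 of 13 were lower, none had an unadjusted p under 0.05, and the median was −0.03. Cardiomyocyte markers took 12.4 to 12.7% in control and 12.3 to 13.6% in Wls fl/fl, with the highest share in Wls fl/fl replicate 2, as for all 3 groups of subunits, and their part in the respiratory chain values was not tested.

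Other energy genes leaned the same way. In the citric acid cycle and pyruvate list 23 of 29 were higher, 11 of them and no lower gene at an unadjusted p under 0.05, with a median of 0.10. Cs, citrate synthase, had 10826, 10488 and 10834 normalized reads in control against 11494, 12215 and 11565 in Wls fl/fl. The groups did not overlap, and the adjusted p by limma was 0.424. Fatty acid oxidation had 24 of 31 higher, 7 at an unadjusted p under 0.05, and a median of 0.06, with Eci1, Cpt2 and Ucp3 at the smallest p (log2 differences 0.19, 0.18 and 0.20). Glycolysis also had 17 of 24 higher, 9 at an unadjusted p under 0.05, and a median of 0.08. Its phosphofructokinase Pfkl had 531, 552 and 564 in control against 641, 691 and 656 in Wls fl/fl (0.27, adjusted p = 0.197), while the glucose transporter Slc2a1 overlapped at 29.7 ± 5.66 and 24.3 ± 4.79. No gene of these 3 lists was called. The shares with an unadjusted p under 0.05 were 37.9, 22.6 and 37.5%, all higher, against 4.91% of all genes in that direction. Without replicate 3 of both genotypes, an unadjusted p under 0.05 was met by 1 of 29 citric acid cycle and pyruvate genes. It was met by 3 of 31 fatty acid oxidation genes and 2 of 24 glycolysis genes, against 3.98% of all genes in that fit. The citric acid cycle and pyruvate list was then no longer above that share. The medians were 0.11, 0.07 and 0.09.

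Contractile genes were less uniform. Of 35 tested sarcomere, Z-disc and M-band genes 21 were higher and 14 lower, and the median was 0.03. Among them 2 higher and 4 lower had an unadjusted p under 0.05 (17.1%), against 8.74% of all genes. Xirp2, an actin-binding protein of the intercalated disc, had 2244, 2190 and 2129 normalized reads in control against 2502, 2425 and 2458 in Wls fl/fl (log2 difference 0.17, adjusted p = 0.363). It thus lay opposite to Myom2 and Tcap. The slow myosin heavy chain Myh7 was at 7094 ± 141 and 7181 ± 218, and skeletal alpha-actin Acta1 at 557 ± 98.1 and 670 ± 176, both with overlap.

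Genes that are re-expressed in stressed or fetal heart were mostly lower, 12 of 17, with a median of −0.05. Only 1 member had an unadjusted p under 0.05 (5.88%), against 8.74% of all genes. That member was Ankrd1, a stretch-responsive nuclear and sarcomeric protein and also a Yap target, with 3877, 3318 and 3895 in control against 3074, 3026 and 3191 in Wls fl/fl (log2 difference −0.25, adjusted p = 0.28). The natriuretic peptides overlapped, Nppa with 255, 373 and 258 in control against 160, 325 and 206 in Wls fl/fl, and Nppb with 630, 479 and 554 and 545, 397 and 537. Nppa is also an atrial gene, and the atrial markers Myl7 and Myl4 followed the same order over the Wls fl/fl libraries (Myl7 12.9, 251 and 62.1). Their part in the values of Nppa was not tested.

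Genes of calcium handling, ion channels and cell contacts had medians near 0, and none was called. An unadjusted p under 0.05 was met by 13.6, 14.8 and 14.3% of the 3 lists, against 8.74% of all genes. Groups did not overlap for 22.7, 14.8 and 25%, against 15% of all genes. Calcium handling had 12 of 22 higher, 3 at an unadjusted p under 0.05, and a median of 0.02, and Ryr2, the calcium release channel, was at 20039 ± 1352 and 22137 ± 1809 with overlap. Ion channels and gap junctions had 15 of 27 higher, 3 higher and 1 lower at an unadjusted p under 0.05, and a median of 0.01. Intercalated disc and costamere genes had 15 of 28 higher, 3 higher and 1 lower at an unadjusted p under 0.05, and a median of 0.01. Dystrophin (Dmd) was at 2816 ± 49.95 and 3011 ± 46.7 (log2 difference 0.10, limma adjusted p = 0.558).

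Collagens and fibril enzymes leaned towards higher values in the muscle fraction of Wls fl/fl hearts, and none was called. Of 20 tested collagens I, III, V, VI, VIII and XIV and fibril enzymes, all 20 had a log2 difference above 0, and the median was 0.16 (0.117 to 0.214 with each library left out). An unadjusted p under 0.05 was met by 8 (4.91% of all genes upward), 8 did not overlap (7.97% of all genes upward), and without replicate 3 of both genotypes 3 had such a p. Col6a3, a chain of the collagen that surrounds muscle cells, had 299, 268 and 282 normalized reads in control against 322, 375 and 348 in Wls fl/fl (log2 difference 0.30, adjusted p = 0.389). P4ha1, which hydroxylates collagen prolines, had 171, 167 and 183 and 226, 209 and 229 (0.35, adjusted p = 0.28). Col1a1, the main fibrillar collagen of fibroblasts, overlapped at 1183 ± 63.7 and 1392 ± 264, with the highest value, 1691, in Wls fl/fl replicate 2. As a share of reads the list took 0.155 to 0.176% in control and 0.171 to 0.201% in Wls fl/fl, and the groups overlapped.

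Basement membrane genes had 17 of 24 higher and a median of 0.08. Among them 5 higher and 2 lower had an unadjusted p under 0.05 (29.2%), against 8.74% of all genes. The 2 chains of the major collagen IV lay apart, Col4a1 with 6919, 6210 and 6717 in control against 7835, 7800 and 7701 in Wls fl/fl (log2 difference 0.24, adjusted p = 0.14), and Col4a2 with a difference of 0.18 (adjusted p = 0.304). Fibroblast markers, some of which are collagens, had 11 of 19 higher and a median of 0.02. Of the 3 with the smallest p, Gsn and Dcn were lower by 0.25 and 0.18 and Pi16 was higher by 0.40, none of them called. The share of fibroblast markers was highest in Wls fl/fl replicate 2 (0.180%) and lowest in Wls fl/fl replicate 1 (0.144%). Whether fibroblast RNA contributed to the collagen values was not tested.

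**Figure D4:**
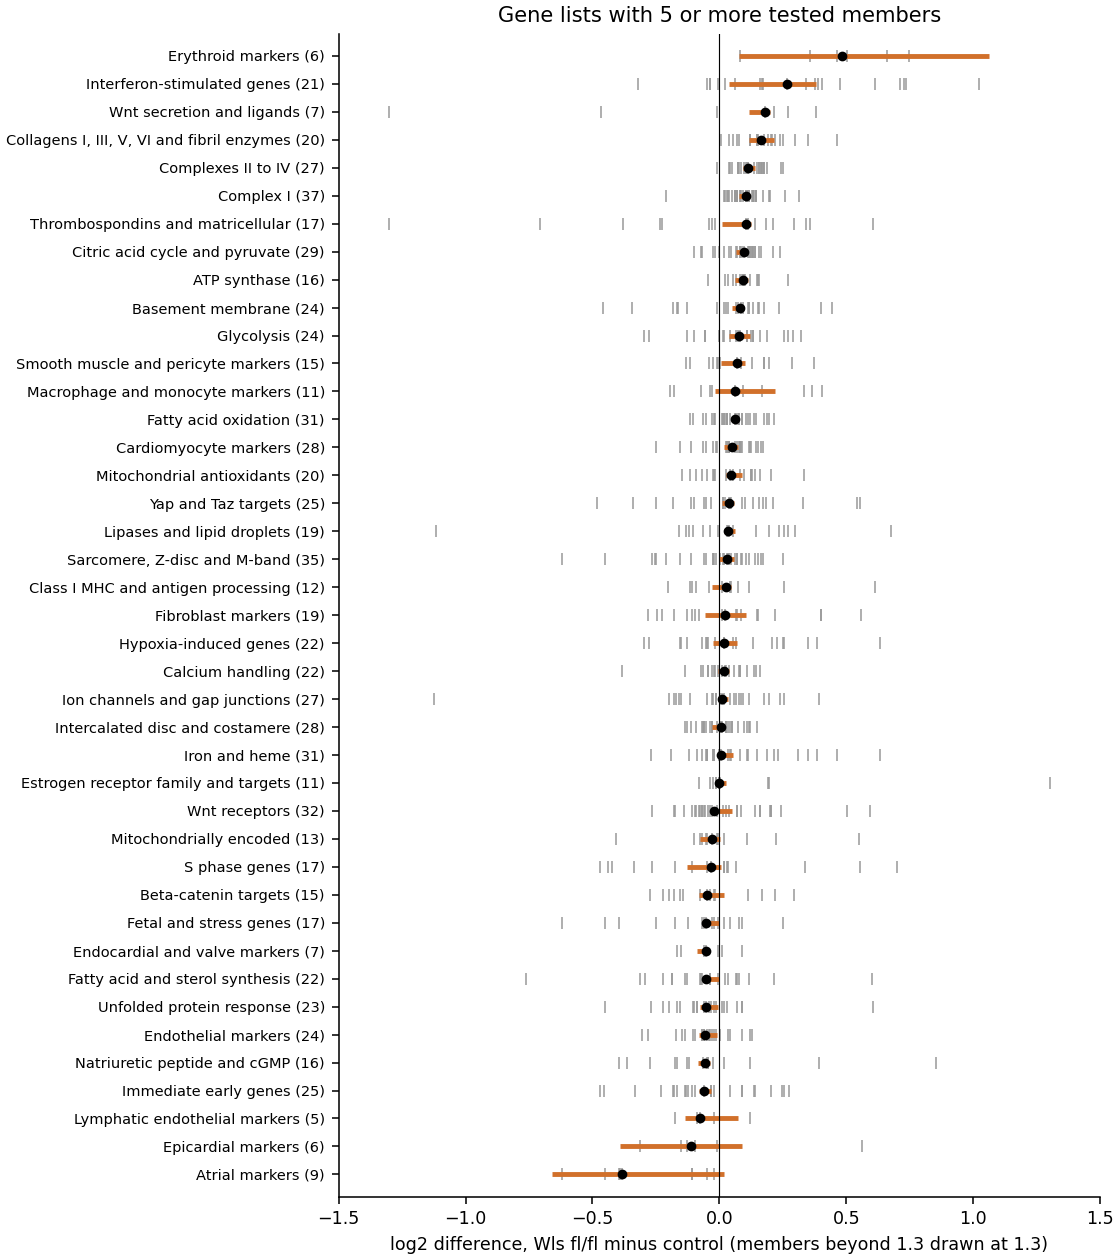
Log2 difference of Wls fl/fl minus control for the tested members of each gene list with 5 or more of them (grey ticks, members beyond 1.3 drawn at 1.3), with the list median (black dot) and the range of medians with each library left out (orange bar). Respiratory chain and collagen medians stay above 0 with each library left out, whereas the bars of interferon, erythroid and atrial genes are wide.

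No listed gene of the Wnt route outside Wls itself was called. Of 21 listed genes for Wnt ligands and their secretion 7 had a mean of 10 or more. Porcn, which attaches the lipid that Wls recognises, was at 17.4, 6.17 and 11.7 in control against 10.6, 11.5 and 10.4 in Wls fl/fl. Wnt5a, a noncanonical ligand, was at 73.6 ± 8.04 and 83.4 ± 8.68, and Wnt7b at 34.1 ± 1.86 and 25.8 ± 11.1, each with overlap. Of 32 tested Wnt receptors, modulators and planar polarity genes 15 were higher and 17 lower, none had an unadjusted p under 0.05, and the median was −0.02.

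Beta-catenin targets had 11 of 15 lower and a median of −0.05. Among them 1 higher and 1 lower had an unadjusted p under 0.05 (13.3%), against 8.74% of all genes. Axin2, the feedback inhibitor used as a readout of beta-catenin, was at 25.5, 37.0 and 31.1 in control against 32.9, 30.2 and 25.2 in Wls fl/fl, and the groups overlapped. Ccnd2, a cyclin of the G1 phase, had 836, 937 and 846 and 1049, 997 and 1001 (log2 difference 0.22, adjusted p = 0.389). The transcription factor Tcf7l2 was at 193 ± 3.07 and 166 ± 17.2 (−0.22, adjusted p = 0.552). Yap and Taz targets, of interest because the series title names Yap, had 16 of 25 higher and a median of 0.04. Of these targets 3 higher and 3 lower had an unadjusted p under 0.05 (24%), against 8.74% of all genes. Besides Ankrd1, the members of smallest p were Sema5a, at 62.7 ± 12.7 and 91.6 ± 8.92, and Igfbp3, at 295 ± 65.2 and 208 ± 23.2, neither of them called.

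Interferon-stimulated genes had a median of 0.27, with 16 of 21 tested members higher and none called. Of the higher members 5 had an unadjusted p under 0.05 (23.8% of those tested), against 4.91% of all genes in that direction. Irf7, the factor that amplifies the interferon response, had 19.4, 11.1 and 24.3 normalized reads in control against 39.9, 33.3 and 36.2 in Wls fl/fl (log2 difference 1.02, SE 0.27, adjusted p = 0.388). Irf9 had 65.4, 46.9 and 66.2 and 116, 101 and 79.6 (0.73, adjusted p = 0.28), and Parp14 had 162, 138 and 159 and 193, 202 and 206 (0.39, adjusted p = 0.28). These 3 lay apart between genotypes, while the median of the list ranged from 0.0373 to 0.381 when single libraries were left out. Class I MHC and antigen processing genes, many of them also induced by interferon, had a median of 0.02 over 12 tested members. Macrophage markers, at 0.00719 to 0.00876% and 0.00754 to 0.00810% of reads, overlapped between genotypes.

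Cell cycle genes were scarce in this fraction. Only 3 of 25 listed G2 and mitosis genes had a mean of 10 or more, Mki67, Top2a and Cenpf. Mki67, which marks cycling cells, had 19.4, 22.2 and 25.3 normalized reads in control against 32.9, 31.3 and 38.8 in Wls fl/fl, apart but not called (log2 difference 0.60, adjusted p = 0.446). Top2a, the topoisomerase of dividing cells, overlapped at 11.1 ± 3.98 and 14.7 ± 1.75. S phase genes had 8 of 17 higher and a median of −0.03, and Pcna, the polymerase clamp, was at 93.5 ± 7.22 and 69.3 ± 12.4 (−0.44, adjusted p = 0.444).

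Among stress programmes, hypoxia-induced genes had 1 call, Tfrc. Of 22 tested, 8 (36.4%) had an unadjusted p under 0.05, 7 higher and 1 lower, against 8.74% of all genes, and 4 did so without replicate 3 of both genotypes. The median was 0.02, with 12 higher and 10 lower. As a share of reads the list took 0.234 to 0.254% in control and 0.273 to 0.284% in Wls fl/fl, with no overlap. Summed over the tested members, values were 14941 to 16085 in control and 17384 to 17941 in Wls fl/fl. Tfrc alone held 2858 to 3547 and 4906 to 4978 of these, so the separation does not describe the list apart from Tfrc. Vegfa overlapped at 1746 ± 169 and 1695 ± 275. Unfolded protein response genes had 16 of 23 lower and a median of −0.05. Among them 1 higher and 1 lower had an unadjusted p under 0.05 (8.70%), near the 8.74% of all genes. Immediate early genes had 16 of 25 lower and a median of −0.06, with Fosl2 lower by 0.23 (adjusted p = 0.399). Genes of fatty acid and sterol synthesis had 14 of 22 lower and a median of −0.05.

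Differences were spread over most chromosomes, with unequal shares. On chromosome 19, 21 of 400 tested genes (5.25%) had an unadjusted p under 0.01, against 2.24% of all genes. Among the autosomes, chromosome 13 with 18 of 423 (4.26%) and chromosome 17 with 20 of 541 (3.70%) came next. The mitochondrial chromosome had 1 of 19 (5.26%). The 8 genes of chromosome 19 with a p under 0.001 were Prkg1, Prune2, Gsto1, Scd4, Pyroxd2, Sec31b, Sfr1 and Prdx5, 5 of them higher and 3 lower. They lay between 6.91 and 47.9 Mb, unevenly spaced. Pyroxd2, Scd4, Sec31b, Sfr1 and Gsto1 lay close together at the upper end of that range, starting at 42725858, 44333092, 44516957, 47731682 and 47854970. Prdx5, Prune2 and Prkg1 lay farther apart, starting at 6906697, 16956118 and 30564489. Whether the 2 genotypes differ in background sequence there was not tested. Among called genes, Ndrg4 and Ces1d lay 2.51 Mb apart on chromosome 8, Thbs4 and Nnt 26.6 Mb apart on chromosome 13, and Fam81a and Alas1 36.1 Mb apart on chromosome 9. Around Wls no neighbour was called. Within 20 Mb, 1 of 49 tested genes had an unadjusted p under 0.05, and Wls was the only call of the region, with Ankrd13c, Srsf11 and Lrrc40 at log2 differences of 0.04, −0.02 and 0.01.

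Some abundant genes separated single libraries from others of the same genotype by far more than the genotypes differed. Zrsr1 encodes an RNA splicing factor and is an imprinted gene that lies within Commd1 on the opposite strand (chromosome 11, 22972005 to 22976496). It had 94.0, 104 and 17604 normalized reads in control libraries against 101, 18867 and 17746 in Wls fl/fl libraries. Control replicate 3 and Wls fl/fl replicates 2 and 3 were thus high and the other 3 libraries low. The difference of means, 2.54 on the log2 scale, therefore did not pass the test. In the non-cardiomyocyte fraction 5 of 6 libraries were high, at 16633 to 19616, and 1 control library was at 122. Commd1 itself had 309 in Wls fl/fl replicate 1 and 85.6 to 105 in the other 5 cardiomyocyte libraries. With the use of strand in counting not stated, reads of this pair cannot be told apart. The related splicing factor gene Zrsr2 ranged only from 59.2 to 74.0.

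Other genes of this kind marked single libraries. Hbb-bs, adult beta-globin, had 85.8, 222 and 148 in control against 398, 63.6 and 317 in Wls fl/fl. Fkbp5, a gene induced by glucocorticoids, had 102, 507 and 256 and 209, 230 and 236, and the orphan nuclear receptor gene Nr4a3 had 339, 55.5 and 229 and 143, 86.5 and 131. Control replicates 1 and 2 were thus opposite extremes for both genes, with control replicate 3 between them. Arhgef19, singled out after its values were seen, had a log2 difference of 3.26 that rested on Wls fl/fl replicate 2, with 1.02, 0 and 4.87 in control against 3.52, 95.9 and 22.7 in Wls fl/fl (adjusted p = 0.399).

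**Figure D5:**
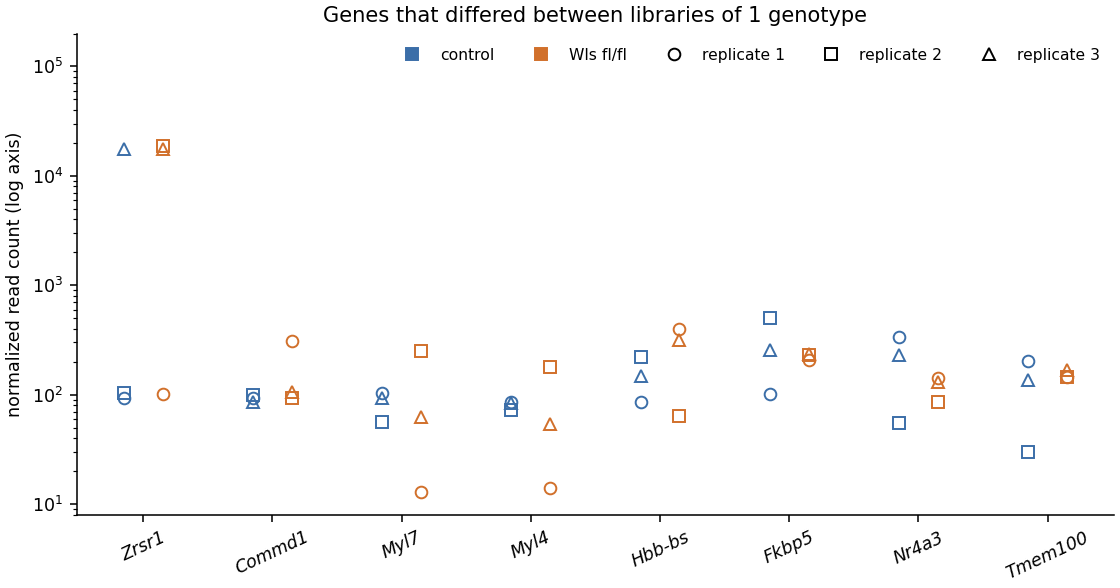
Normalized read count (log axis) in each of the 6 cardiomyocyte libraries for genes with a wide range within a genotype. Zrsr1 is at 94.0 to 104 in 3 libraries and between 17604 and 18867 in the other 3, across both genotypes, and Fkbp5 and Nr4a3 place control replicates 1 and 2 at opposite ends.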

How the data were processed

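RNA was sequenced from the cardiomyocyte and non-cardiomyocyte fractions of control and Wls fl/fl hearts, 3 libraries per group, with groups taken from the labelled genotype and fraction. The submitters' processing notes name STAR, DESeq2 and mm10 without versions, while annotation, counting tool and use of strand were not given in the sources used here. Deposited signal values are normalized read counts, obtained by the authors through division of read counts by 1 size factor per library, separately for each fraction. Every value was a whole multiple of 1 step per library (100% within 0.01 reads), so reads could be recovered. Per the file headers, the tables also hold the authors' log2 fold changes and the authors' p-values, used only where the authors' deposited table is named.

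The values were tested by limma 3.58.1 in R 4.3.3 (lmFit, eBayes with trend). The scale was log2(value + 1), genes needed a mean of at least 10, and p-values were adjusted by Benjamini-Hochberg. "Called" means an adjusted p under 0.05, and SE is the standard error of the log2 difference. Fold changes come from the difference of mean log2(value + 1), so they are not ratios of the printed means. The added 1 shrinks those of low genes. The number of genes called by edgeR on recovered reads was 12. The effect of genotype was compared between fractions by the interaction term of an edgeR 4.0.16 quasi-likelihood fit of all 12 libraries. Exact permutation of 3 against 3 libraries cannot go below 0.1, so none was run for single genes. Of the symbols, 44027 (93.7%) matched 1 gene of GENCODE M21, which gave positions on mm10, except that RefSeq gave that of Nnt. In addition, 20454 symbols had no read, and 27 had been turned into dates.

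Genes open to naming were Wls, the 3 markers, every called gene, the next 12 by p with a mean of 50 or more and groups apart, up to 3 members of smallest p and the defining markers per list, the genes around Wls, the 10 highest per kb and those at the limit of the filter. Some of them are given only within the counts of their list, and a result for a gene of this rule is not reported here. The members and the 48 gene lists (945 genes, 762 tested) were chosen with earlier results of these data known, and lists are described by counts and medians without a set test. Only the limma and edgeR fits of genotype in the muscle fraction were checked on simulated counts. Each recovered 62 of 99 genes changed by 0.5 on the log2 scale. Of 99 genes changed by 1, limma recovered 89 and edgeR 86. Alternatives were TMM and upper-quartile scaling, a mean of 50, no filter, pseudocounts of 0.5 and 5, edgeR, DESeq2 1.42.0, limma-voom, an adjusted p of 0.1, each library left out, and replicate 3 of both genotypes left out. The edgeR fit without replicate 3, and the interaction without replicate 3 or without non-cardiomyocyte control replicate 1, were added after the data were seen.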

Additional observations from a re-analysis of the deposited data

Results flagged for a closer look

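For 3 of the genes called in the muscle fraction the effect of genotype differed between the fractions by a test of the difference itself, the interaction of fraction and genotype in an edgeR fit of all 12 libraries (quasi-likelihood, adjusted over 13993 genes). For Wls the log2 change was −1.40 in the cardiomyocyte and −0.25 in the non-cardiomyocyte libraries of that fit, a difference of 1.148 (adjusted p = 0.0103). For Esr1 the changes were 6.14 and 4.21, a difference of −1.931 (adjusted p = 0.0299). For Mdga1 they were 0.69 and 0.06, a difference of −0.6368 (adjusted p = 0.0447). In the muscle fraction the 3 Wls fl/fl libraries lay on 1 side of all 3 control libraries for each of these genes. Without replicate 3 of all 4 groups the differences were 1.39, −1.90 and −0.66, and none passed the test, with adjusted p of 0.243, 0.734 and 0.734.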

How the results depend on the processing

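With 11 genes called, TMM scaling, upper-quartile scaling, a mean of 50 or more and a pseudocount of 5 also gave 11, and a pseudocount of 0.5 and edgeR gave 12. DESeq2 gave 23, limma-voom 17, no filter 41 and an adjusted p under 0.1 gave 21. With 1 library left out the count ranged from 5 (when replicate 3 of either genotype was dropped) to 18 (without control replicate 1), with 17 without control replicate 2 or Wls fl/fl replicate 2. Of the 11 genes, 4 (without control replicate 3) to 11 were still called, with 5 without Wls fl/fl replicate 3. Leaving out replicate 3 of both genotypes left 2 called genes by limma and 2 by edgeR, with 2 libraries per group, and these were Esr1 and Thbs4. Wls ranged from −1.221 to −1.572 with 1 library left out, was −1.473 with an adjusted p of 0.0527 without control replicate 3, −1.596 (0.0896) without replicate 3 of both genotypes, and −1.597 (0.0815) in edgeR without them. Myh6 and Actn2, near 0 and uncalled, turned sign. Myh6 ranged from −0.0669 to 0.00106 with 1 library left out and was 0.00939 by limma and 0.00702 by edgeR when replicate 3 of both genotypes was dropped, and Actn2 ranged from −0.0106 to 0.06607 with 1 library left out. The interaction passed for 3 of the 11 genes, for 2 without non-cardiomyocyte control replicate 1 and for 0 without replicate 3 of all 4 groups. Over the single genes and alternatives, 351 values kept direction and side of the threshold, 33 were no longer past it, 37 were newly past it and 4 turned direction. Of 41 lists with 5 or more tested genes, 26 had a median above 0, and 23 to 29 under the alternatives run. The cause of these differences was not tested. At 1 read per 0.647 to 1.23 units, genes near a mean of 10 rest on few reads. No paired analysis was possible because the library numbers in the titles are not shared between genotypes, and replicate numbers here only follow accession order.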
